A study of Rattus norvegicus with 6 samples.

Results

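Microglia markers were examined in cultures of rat oligodendrocyte precursors, proliferating cells from which the myelinating oligodendrocytes of brain and spinal cord arise. The set held 4 genes of the 20174 on the array. They were chosen by identifier: ENSRNOG00000000853 (Aif1), ENSRNOG00000037563 (Cd68), ENSRNOG00000019728 (Itgam) and ENSRNOG00000018735 (Cd74). The names were assigned to these identifiers when the set was chosen, and neither the deposited files nor the RefSeq table used here pairs Ensembl identifiers with symbols. Total RNA was amplified, labelled and hybridised to 6 arrays in 1 colour (Cy5). Cells at day 3, after differentiation by a change of growth factors, gave 3 arrays, and cells at day 0, before it, gave 3. All cells were grown in Raff medium. No strain, age or genotype is stated in the labels used here, and they do not say whether the arrays of a day came from separate cultures. In each group 2 arrays are numbered in their titles (number 1 and number 2), and 1 carries another style of title without a number. It is called the unnumbered array.

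Microglia are the resident macrophages of the brain. They come from a different lineage than oligodendrocytes and are a well-known companion in mixed glial cultures, from which precursors are commonly prepared by shaking. Aif1 encodes IBA1, an actin-binding protein widely used to stain microglia and macrophages. Cd68 encodes a glycoprotein of lysosomes and endosomes that is abundant in phagocytes. Itgam encodes CD11b, the alpha chain of complement receptor 3. Cd74 encodes the invariant chain, which escorts MHC class II molecules, and it is low in resting microglia and raised in activated ones. Whether other microglia genes, MHC class II genes or genes of the oligodendrocyte lineage moved with these 4 was not analysed here, since their identifiers could not be named.

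Promoters are shown for Cd68 and Itgam, the markers with an entry in the table whose spots stood clear of the blanks, as described further on. They come from RefSeq on the GRCr8 build, run 5′ to 3′ on the strand of the gene, and cover 250 bases before to 50 bases after the annotated start. Capitals mark the letters GAGGAA or, on the other strand, TTCCTC, the purine-rich core bound by PU.1, a transcription factor that macrophages and microglia need.
Cd68, chr10:54882392-54882691, minus strand: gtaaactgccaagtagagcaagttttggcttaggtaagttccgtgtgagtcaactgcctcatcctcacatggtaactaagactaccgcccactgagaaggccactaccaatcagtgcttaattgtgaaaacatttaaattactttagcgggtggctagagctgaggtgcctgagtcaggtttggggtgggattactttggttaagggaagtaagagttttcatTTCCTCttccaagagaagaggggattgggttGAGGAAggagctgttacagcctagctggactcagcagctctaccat
Itgam, chr1:192089342-192089641, plus strand: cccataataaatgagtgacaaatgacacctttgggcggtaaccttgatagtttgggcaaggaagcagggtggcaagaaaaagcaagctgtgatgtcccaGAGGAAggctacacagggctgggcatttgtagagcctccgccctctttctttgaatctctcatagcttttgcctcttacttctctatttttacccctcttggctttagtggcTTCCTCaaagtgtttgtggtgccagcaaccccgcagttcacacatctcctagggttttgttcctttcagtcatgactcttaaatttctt
Each of these windows held the core 2 times. In Cd68 the matches started at base -27, on the other strand, and at base 5 relative to the start, and in Itgam at base -151 and, on the other strand, at base -39. The Cd74 window held 1 match, on the other strand at base -32. Of the 4 genes, 3 had a promoter in the table; Aif1 had none. Across all 33469 promoters of the same length in the table, 27.6% held the core on at least 1 strand. A match is a description of the letters and not a binding site.

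The depth of an array is set by its signal over empty surface. Each array carried 5808 blank spots, and a spot was taken as above the limit when its signal exceeded the mean plus 2 SD of the blank spots of its array, after the top and bottom 5% of blanks were left out. The limit lay between 13.9 and 16.9 scanner units on the 6 arrays. All 4 markers were above it on all 6 arrays, as were 71.5% of the 20174 genes. They differed widely in the margin. Signals of different probes do not give the relative abundance of their transcripts, so each marker is read only against the blanks and against itself.

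Aif1 was well above empty surface at both times. Its spot signal was 2206, 516 and 1313 scanner units on the day 3 arrays (number 1, number 2, unnumbered), and 2280, 1677 and 4867 units at day 0 (same array order). These signals were 32.9 to 288 times the blank limit. The lowest day 3 signal belonged to number 2 and the highest day 0 signal to the unnumbered array, and the groups overlapped, since day 3 number 1 exceeded day 0 number 2. None of the 5808 blank spots reached the Aif1 signal on any array, and a count of 0 allows a share of up to 0.0517%.

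Cd68 gave the same picture of detection. Its spot signal was 1724, 565 and 804 on the day 3 arrays, against 1150, 1412 and 2601 at day 0, with arrays ordered as for Aif1. It lay at 36.1 to 154 times the blank limit, and 0 of 5808 blank spots reached it on any array, which again allows a share of up to 0.0517%. Day 3 number 1 was higher than both numbered day 0 arrays, so the groups overlapped.

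Itgam was dimmer but stood clear of the blanks. Its spot signal was 38.3, 30.5 and 27.0 at day 3, and 45.5, 52.0 and 123 at day 0 (number 1, number 2, unnumbered). These were 1.65 to 7.31 times the limit. Between 0 and 7 of 5808 blank spots were as bright on the same array. All day 3 signals lay below all day 0 signals before the arrays were scaled, a pattern shared by 18.6% of the 15437 genes tested. After quantile normalisation the groups overlapped, with day 3 number 1 at 6.61 and day 0 number 1 at 6.52 on the log2(signal + 50) scale. On that scale 9.11% of genes tested had every day 3 value below every day 0 value.

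Cd74 lay close to empty surface. Its spot signal was 15.5, 17.8 and 20.4 at day 3, against 16.9, 19.5 and 34.0 at day 0 (number 1, number 2, unnumbered). On 5 of the 6 arrays it was 1.10 to 1.24 times the limit, and 74 to 354 of the 5808 blank spots (1.27% to 6.1%) were as bright. The unnumbered day 0 array was the exception, at 2.01 times the limit, where 1 blank spot was as bright. With the limit set at the 99th percentile of the blanks, Cd74 was above it on 0 of 3 day 3 arrays and 1 of 3 day 0 arrays, and the other 3 markers remained above it on all 6 arrays. A difference in Cd74 between most of these arrays was therefore not detectable at this signal.

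**Figure D1:**
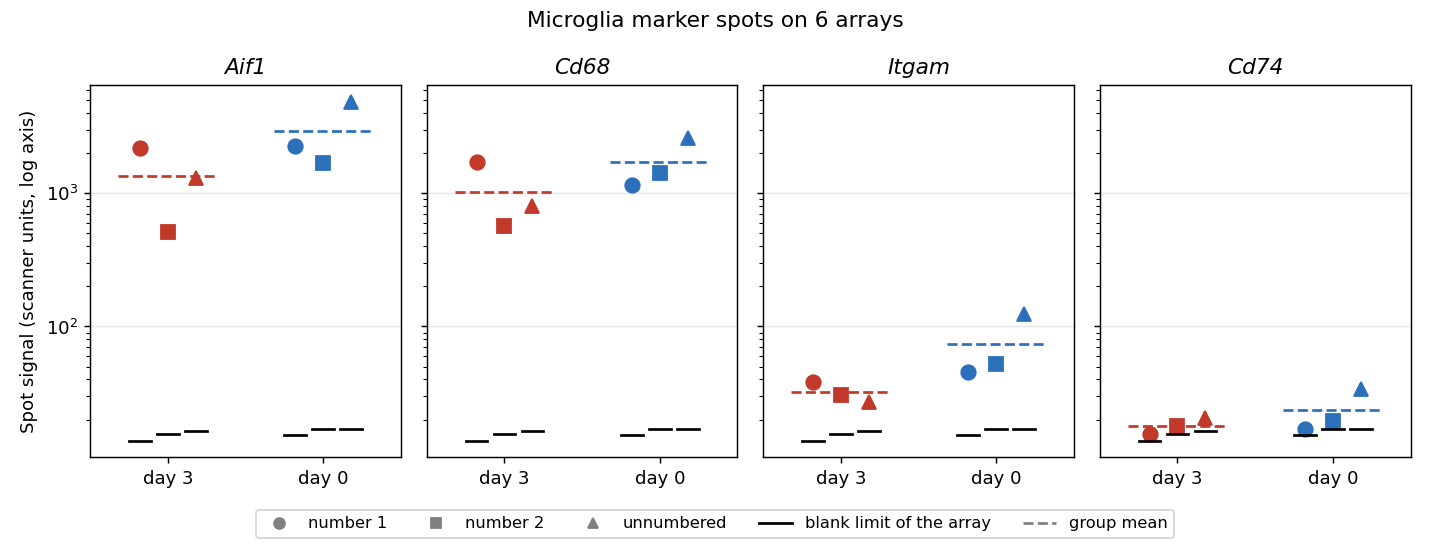
Spot signal of the 4 markers in scanner units on a log axis, with day 3 on the left and day 0 on the right of each panel. Points are single arrays, with the shape giving the number in the title, dashed lines are group means (n = 3) and short black lines are the blank limit of each array. Aif1 and Cd68 lie at 33 to 288 times the limit, Itgam lies a few times above it and Cd74 close to it, and the unnumbered day 0 array is highest in every panel.

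**Figure D2:**
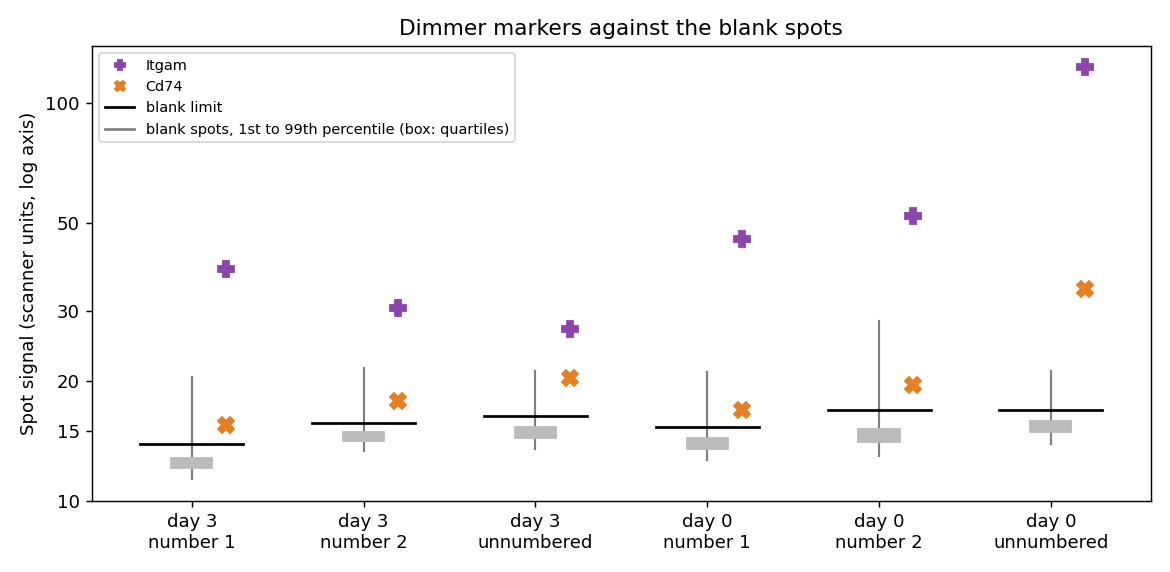
Spot signal of Itgam and Cd74 against the blank spots of each array, in scanner units on a log axis, with the day 3 arrays on the left. Grey lines span the 1st to the 99th percentile of the blanks, boxes their quartiles, and black lines the blank limit. Itgam lies above the 99th percentile on all 6 arrays and Cd74 on 1, the unnumbered day 0 array.

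The design asks how expression differs after differentiation, and for these genes whether the microglia signal differed between day 3 and day 0. All 4 markers averaged lower at day 3, and none of the 4 differences passed the test. The median of the 4 differences was -0.48 on the log2(signal + 50) scale, beside -0.0042 over all 15437 genes tested, of which 52.1% lay below 0. Scaling largely sets the all-gene median, which was -0.097 with no scaling and 0.12 with 75th percentile scaling. Limma called 112 genes as rises (0.726%) and 49 as falls (0.317%) at an adjusted p under 0.05. With the deposited background column subtracted by normexp it called 4 rises (0.0259%) and 1 fall (0.00648%), with none of the 4 markers among them. Bulk arrays cannot tell fewer microglia apart from less of these RNAs per cell. Since separate cultures are not stated, every p-value here rests on differences between arrays that may be technical only.

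Aif1 averaged 10.35 ± 0.93 at day 3 and 11.24 ± 0.94 at day 0 on the log2(signal + 50) scale (SD, n = 3 each). The difference was -0.89 (SE 0.67, 95% interval -2.61 to 0.83), which is 0.541 times the day 0 level. It was not called (limma, adjusted p = 0.733), and an exact two-sided permutation test gave p = 0.4, where 3 against 3 arrays cannot go below 0.1. The difference was smaller than the SD between arrays of either day. The interval spans large falls as well as a rise, so these arrays do not show that Aif1 stayed level.

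Cd68 averaged 10.04 ± 0.71 at day 3 and 10.57 ± 0.80 at day 0 (SD, n = 3 each, log2 scale). Its difference of -0.53 (SE 0.55, 95% interval -1.93 to 0.87) was also smaller than either SD (limma, adjusted p = 0.838, and p = 0.5 in the exact two-sided permutation test). Itgam averaged 6.41 ± 0.20 and 6.84 ± 0.41 in the same order, a difference of -0.43 (SE 0.24, 95% interval -1.03 to 0.17; limma, adjusted p = 0.567; exact two-sided permutation p = 0.2). The 50 units added before taking logs exceed most Itgam and all Cd74 signals, so differences on this scale understate those of both genes. Without them the Itgam difference was -0.87 (limma, adjusted p = 0.434).

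Cd74 averaged 6.10 ± 0.0034 at day 3 and 6.16 ± 0.12 at day 0 (SD, n = 3 each, log2 scale), and its difference was -0.062 (SE 0.069, 95% interval -0.24 to 0.12; limma, adjusted p = 0.867; exact two-sided permutation p = 0.7). Spots this close to the blanks are drawn together by the added 50 units. Pooled over both days, the Cd74 SD within a day was 0.087 with these units and 0.28 without them. What else narrowed the day 3 spread was not tested. The sign of the Cd74 difference turned to 0.11 when arrays were scaled to their 75th percentile, which moved the median of all genes by 0.13.

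The direction of the change was not the same in the 3 array pairs. On the number 1 arrays Cd68 was higher at day 3, by 0.93 on the normalised log2 scale, and also before scaling and in the authors' values. For the other markers the sign on these arrays depended on the scaling. Aif1 differed by 0.39 after quantile normalisation and was higher in the authors' values, but its unscaled signal was lower at day 3 (2206 at day 3 and 2280 at day 0). Itgam differed by 0.088 after quantile normalisation and was lower at day 3 both before scaling and in the authors' values. Cd74 differed by 0.035 close to the blanks, and was lower before scaling. In the authors' values Cd74 was slightly higher at day 3 on the number 1 and the number 2 arrays alike. On the number 2 arrays the differences were -1.19 for Aif1, -0.82 for Cd68, -0.29 for Itgam and -0.020 for Cd74. On the unnumbered arrays they were -1.86 for Aif1, -1.71 for Cd68, -1.09 for Itgam and -0.20 for Cd74. A positive difference on the number 1 arrays with negative ones in the other pairs was found for 10.8% of all genes tested on the same scale. Whether equal numbers mark a shared culture is not stated in the labels.

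**Figure D3:**
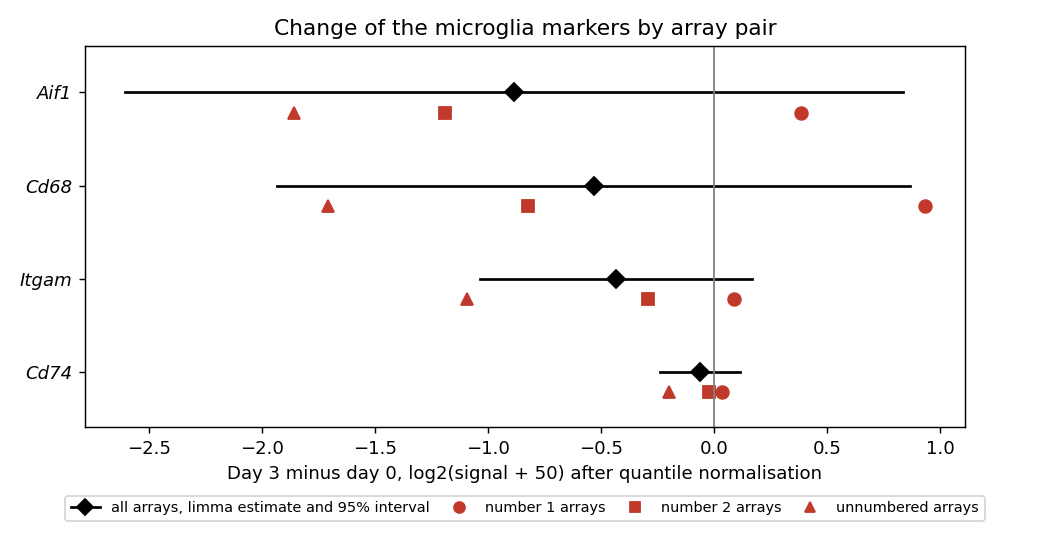
Day 3 minus day 0 differences of the 4 markers on the log2(signal + 50) scale after quantile normalisation. Diamonds with lines are the limma estimate over all 6 arrays with its 95% interval, and the other points are the differences within the number 1, number 2 and unnumbered arrays. Every interval spans 0, and on this scale the number 1 arrays lie to the right of 0, though before scaling only Cd68 was higher at day 3 on them.

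The unnumbered day 0 array carried much of the average difference. It had the highest value of all 6 arrays for each of the 4 markers, as it did for 21.8% of the genes tested. Without it the difference was -0.35 for Aif1, -0.086 for Cd68, -0.19 for Itgam and 0.0067 for Cd74 (limma, adjusted p = 0.896, 0.974, 0.676 and 0.975). Without day 3 number 2 the differences of Aif1 and Cd68 also shrank, to -0.41 and -0.27 (limma, adjusted p = 0.988 and 0.999). Without day 3 number 1 the Cd68 difference widened to -0.93, and without day 0 number 1 to -0.85 (limma, adjusted p = 0.582 and 0.747). Among the 4 numbered arrays, the normalised values of day 3 minus those of day 0 gave -0.40 for Aif1, 0.056 for Cd68, -0.10 for Itgam and 0.0076 for Cd74. With title style as a block the differences themselves were the same, with adjusted p = 0.550, 0.714, 0.443 and 0.672 (limma), and none of the 4 was called, where the same fit called 1.03% of genes as rises and 0.738% as falls.

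The 2 styles of title were also compared. With day in the model, limma called 440 genes higher (2.85%) and 417 lower (2.7%) on the unnumbered arrays. These counts did not hold when arrays were left out: 5 of the 6 fits without 1 array called 0 genes, and only the fit without day 3 number 2 called any, 386 higher and 374 lower (limma, with 2128 to 4219 genes under an unadjusted p of 0.05 over the 6 fits). Without scaling both counts were also 0 (limma, with 3965 such genes), and with normexp on the background column they were 1 and 4. None of the 4 markers was among them. Aif1 differed by 0.89 (SE 0.66, adjusted p = 0.487, limma) and averaged 11.39 on the unnumbered arrays and 10.50 on the numbered arrays. Cd68 differed by 0.46 (SE 0.60), Itgam by 0.21 (SE 0.26) and Cd74 by 0.10 (SE 0.062), with adjusted p = 0.708, 0.686 and 0.388 (limma). Without the unnumbered day 0 array these became -0.42 for Cd68, -0.28 for Itgam and -0.00084 for Cd74, and 0.17 for Aif1, with none called. With the authors' processed values, which have the blank mean subtracted and no added units, the Cd74 difference was 1.55 on the log2 scale (limma, adjusted p = 0.0436). On that scale the blank mean is 0, and 5 of the 6 Cd74 values lay between 1.69 and 3.51. The 1.55 is therefore not read as a difference in Cd74.

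Aif1 and Cd68 varied more between arrays of the same day than nearly all other genes. The SD within a day, pooled over both days, was 0.93 for Aif1 and 0.76 for Cd68 on the log2 scale, beside a median of 0.14 over the 15437 genes tested. It was larger than that of 99.7% and 99.2% of those genes. Bright spots vary more on this scale, and among the 1472 genes that averaged at least 1000 scanner units the median SD was 0.30, with 98.8% and 97.5% of them below Aif1 and Cd68. Itgam had an SD of 0.32, larger than that of 82.2% of the genes tested, and Cd74 one of 0.087, larger than that of 35.5%. Without the added 50 units, the SD was 0.61 for Itgam and 0.28 for Cd74, larger than that of 94.3% and 59.2% of the genes tested, and it was larger than that of 99.2% for Aif1 and 98% for Cd68. In spot signal, the highest array exceeded the lowest 9.44-fold for Aif1, 4.60-fold for Cd68, 4.56-fold for Itgam and 2.19-fold for Cd74. In the authors' values, with the blank mean subtracted, these ratios were 7.60 for Aif1, 3.69 for Cd68, 7.62 for Itgam and 6.07 for Cd74, the last from values close to 0. No gene was chosen for its spread.

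**Figure D4:**
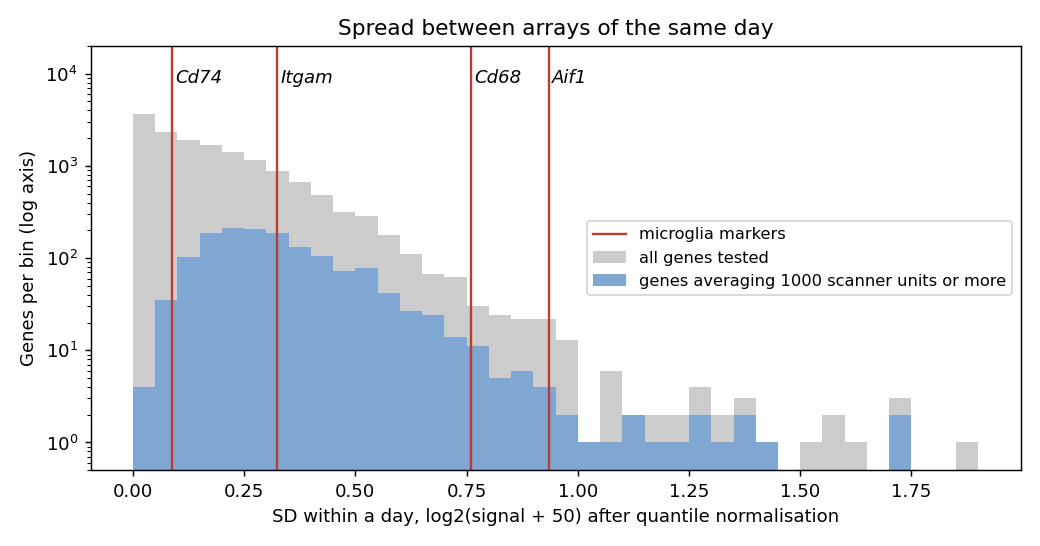
Number of genes, on a log axis, by the SD between arrays of the same day on the log2(signal + 50) scale after quantile normalisation. Grey bars are the 15437 genes tested, blue bars the 1472 of them that averaged at least 1000 scanner units, and red lines the 4 markers. Aif1 and Cd68 lie in the far right tail of both, Itgam and Cd74 in the body of the grey bars.

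Of the 4 markers, 3 had the same arrays at both ends of their order. For Aif1, Cd68 and Itgam the highest array was the unnumbered day 0 array, and the lowest were day 3 number 2 and the unnumbered day 3 array in either order. Across the 6 arrays Cd68 correlated with Aif1 at r = 0.92, and 172 of the 14417 other genes above the limit on all arrays were more like Aif1 than Cd68 was. Itgam correlated with Cd68 at r = 0.89 and with Aif1 at r = 0.82, where 301 and 662 genes were closer to Cd68 and to Aif1. Cd74 correlated with Itgam at r = 0.89, with Cd68 at r = 0.77 and with Aif1 at r = 0.71. Genes closer to Itgam, Cd68 and Aif1 than Cd74 was numbered 404, 785 and 1331. These values describe 6 arrays and share their scaling, their days and the single high array. Closer partners were found for each marker among the 14417 genes. The gene most like Aif1 was ENSRNOG00000027502 (r = 0.995), and the one most like Cd68 was ENSRNOG00000020636 (r = 0.999); neither has a name in the sources used here.

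These genes were picked from 14417 for their likeness over the same 6 arrays. That they follow the markers was thus set by the choice and is no separate evidence of a link. ENSRNOG00000020636 had spot signals of 231, 98.8 and 148 at day 3, against 176, 213 and 439 at day 0 (number 1, number 2, unnumbered). ENSRNOG00000027502 had 204, 105 and 184 on the day 3 arrays, against 237, 210 and 388 on the day 0 arrays, and like Aif1 it was lowest on day 3 number 2.

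The deposited background column was high at the spots of the bright markers. At blank spots its median was 9.22 to 12.8 scanner units. For Aif1 it read 321 to 3075 scanner units, which was 62.2% to 104% of the spot signal, and on the unnumbered day 3 array it exceeded the signal. For Cd68 it was 14.6% of the signal for the unnumbered array of day 0, against 52.0% to 65.5% on the other 5. For Cd74 it read 12.1 to 33.4. Across all gene spots its Spearman correlation with the signal was 0.92 to 0.97 within an array. The unnumbered day 0 array had the highest Cd68 signal but a lower background at that spot, 380, than 4 of the other arrays. Subtracting the column by normexp gave differences of -1.73 for Aif1, -0.67 for Cd68, -0.24 for Itgam and 0.016 for Cd74 (limma, adjusted p = 0.847, 0.936, 0.913 and 0.979), with no marker called.

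The authors' processed values, which scale each array to a median of 25, placed the same arrays at the extremes. Aif1 was 1475, 352 and 840 at day 3, and 1327, 789 and 2679 at day 0 (number 1, number 2, unnumbered). Cd68 was 1151, 387 and 511 on the day 3 arrays, and 665, 663 and 1428 on the day 0 arrays. For both genes day 3 number 1 was second only to the unnumbered day 0 array. Itgam was 17.3, 11.2 and 7.83 on the day 3 arrays and 18.5, 17.7 and 59.7 on the day 0 arrays. On this scale every Itgam value at day 3 lay below every value at day 0, the closest being 17.3 at day 3 and 17.7 at day 0, and 6.33% of the 14431 genes listed on all 6 arrays did the same. Cd74 was 2.00, 2.33 and 3.51 on the day 3 arrays and 1.69, 2.26 and 10.3 on the day 0 arrays. Of its 6 values, 5 lay between 1.69 and 3.51, counted from the blank mean and divided by the factor of the array.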

How the data were processed

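Spot intensities at 635 nm, in scanner units, were deposited for 27456 spots per array, with a background intensity beside each, per the file headers. The labels name an RNeasy kit, amino-allyl amplification, Cy5 and a Toray protocol. For scanner software, the labels and headers give no name. The authors' processed intensities were found, from the values, to be the spot signal minus the trimmed blank mean, divided by a factor that sets each array's median to 25. Across gene spots the deposited background column rises with the spot signal, with exceptions, and it was not subtracted. Groups came from the label on differentiation, days from the titles.

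The signal plus 50 was taken to log2, quantile normalised over 20174 gene spots and tested with lmFit and eBayes (R 4.3.3, limma 3.58.1) on 15437 genes that passed the blank limit on all 3 arrays of either day or both, with Benjamini-Hochberg adjustment over all of them and a threshold of 0.05. The fit was tested on simulated data. Exact permutation tests used the same log2 values. All 24 marker spots had OK flags at each gain, and no gene spot had the same signal on any 2 arrays. The number of arrays limits the precision. The genes and tests were chosen with earlier results of these data known. The named genes are the 4 markers and, for the 2 brightest, the most alike identifier by Pearson correlation. Alternatives covered background, offset, scaling, filter, variance model, blocks, left-out arrays and detection limits.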

Additional observations from a re-analysis of the deposited data

How the results depend on the processing

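None of the 4 markers was called for the difference between the days in any of 21 alternatives. Several of these fits called few or no genes at all, as given below, so a marker not called in them says little. Adjusted p ran from 0.325 to 0.988 for Aif1, 0.483 to 0.999 for Cd68, 0.345 to 0.913 for Itgam and 0.549 to 1.00 for Cd74 (limma). Aif1 and Itgam kept their sign throughout, from -3.72 to -0.35 and from -1.22 to -0.10. The -3.72 came from plain subtraction of the background column, where results under 1 scanner unit were set to 1. Aif1 on the unnumbered day 3 array, where the background exceeded the signal, was set to that floor. The filters, the variance model and the blocks cannot change the estimates of the 4 markers, so only the other alternatives bear on the sign. Cd68 turned to 0.050 with the numbered arrays alone. Cd74 turned to 0.016 with normexp on the background column, 0.71 with plain subtraction of it, 0.11 with 75th percentile scaling and 0.0063 with the numbered arrays alone. Leaving out each array gave -1.31 to -0.35 for Aif1, -0.93 to -0.086 for Cd68, -0.57 to -0.19 for Itgam and -0.11 to 0.0067 for Cd74. For unnumbered minus numbered arrays, Aif1 turned to -0.63 with normexp on the background column. Plain subtraction, with the same Aif1 spot at the floor, turned Aif1 to -3.35, Itgam to -0.18 and Cd74 to -0.22. Normexp on the background column turned Cd74 to -0.0020. The authors' processed values raised Cd74 to 1.55 (adjusted p = 0.0436, limma). Leaving out each array gave 0.17 to 1.64 for Aif1, -0.42 to 1.35 for Cd68, -0.28 to 0.71 for Itgam and -0.00084 to 0.20 for Cd74.

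The labels number only 2 pairs, so number was not used to pair arrays, although deviations from the group means correlated at 0.27, 0.48 and 0.60 within number 1, number 2 and the unnumbered arrays. With these as a replicate block the differences were the same as without it (-0.89, -0.53, -0.43 and -0.062; adjusted p = 0.482, 0.736, 0.514 and 0.706, limma), and 95 genes rose and 42 fell.

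Over all genes, 112 rises and 49 falls became 4 and 1 with normexp on the background column, 24 and 1 with plain subtraction, 230 and 95 with offset 0, 72 and 87 with no scaling, 319 and 101 with the authors' values, and 294 and 97 with trend and robust eBayes. The rises became 186 with 75th percentile scaling and 64 with no filter, and the falls 114 with title style as a block. Rises made up 69.6% of calls, against 56.3% with median and 45.3% with no scaling. The numbered arrays alone gave 0 and 0 (limma, with 1998 genes under an unadjusted p of 0.05). Rises ran from 0 to 76 and falls from 0 to 19 when single arrays were left out, and the fit with 0 of both, without day 0 number 2, had 1725 genes with p under 0.05 before adjustment (limma).

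The 440 genes higher and 417 lower on the unnumbered arrays became 1 and 4 with normexp on the background column, 105 and 99 with median scaling, and 262 and 233 with no filter. Plain subtraction gave 0 and 6, no scaling 0 and 0 (limma, with 2048 and 3965 genes under an unadjusted p of 0.05), and the authors' values 64 lower. Single arrays left out gave 0 to 386 higher and 0 to 374 lower, both 0 in 5 of 6 fits (limma, with 2128 to 4219 genes under an unadjusted p of 0.05). The 24 marker spots above the limit became 17 to 24 with other limits, all but 1 of those lost being Cd74, and 20 of 20 with each array left out. Fewer arrays leave fewer degrees of freedom; for the other changes the cause was not tested. For Cd74, signal near that of empty surface sets the limit.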
